A study of Mus musculus with 14 samples.

Results

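Kidney RNA of term-born female mice that had received streptozotocin (STZ) was compared with that of term-born females that had not. The libraries were chosen by the group names in their labels, 4 term diabetic (T-D) and 4 term non-diabetic (T-ND), which is 8 of the 14 libraries of the series; the other 6 came from preterm females, 3 diabetic (PT-D) and 3 non-diabetic (PT-ND). The comparison covered 22275 genes, those with more than 10 reads in total over the 14 libraries and at least 1 read in the 8. All mice were wild-type (WT) females of the outbred CD-1 stock, sampled at 18 weeks of age. The T-D mice had been given STZ as low-dose injections on consecutive days in early adulthood, and no T-D female of the study needed a second round. The T-ND mice were untreated littermates, so that an effect of the injections, of STZ on the kidney itself and of the raised blood glucose cannot be told apart here. T-D and T-ND mice were born naturally at term and stayed with their mothers, whereas the preterm mice were delivered by Caesarean section and fostered. Mice of all 4 groups had received cationic ferritin, an iron-containing tracer for imaging, shortly before sampling, and were sedated with tribromoethanol. The vessels of the left kidney were clamped before the animal was perfused with fixative. Each library came from 1 whole kidney, so fewer cells of a type and less RNA per cell cannot be told apart, and p-values measure the spread between these mice.

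STZ is a methylating nitrosourea joined to a glucose moiety. It enters cells through the glucose transporter GLUT2, which pancreatic beta cells, hepatocytes and the proximal tubule carry, and it alkylates their DNA. Loss of beta cells removes insulin, and the kidney then filters more glucose than its proximal tubules can reabsorb. DNA damage stabilises p53, a transcription factor that induces genes of cell cycle arrest, DNA repair and apoptosis. NF-kB is held in the cytoplasm by the inhibitor encoded by Nfkbia and, once released, induces chemokines, adhesion molecules and its own inhibitors.

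The 8 libraries held between 16697246 and 28673176 reads counted on genes. Markers of the kidney were abundant in all 8. Lrp2, the endocytic receptor of the proximal tubule, lay between 22231 and 35640.0 normalized counts, where a normalized count is the read count scaled to a common library size. Umod of the thick ascending limb lay between 16339 and 50050.0, Aqp2 of the collecting duct between 6307 and 14017, Nphs1 of the podocyte between 173 and 687 and Pecam1 of the endothelium between 662 and 1424. The libraries of a group were not alike. Hmox1, which encodes the heme-degrading enzyme heme oxygenase 1, was at 75872 and 69130.0 normalized counts in T-ND replicates 1 and 2 but at 1477 and 2554 in T-ND replicates 3 and 4, and between 2088 and 6239 in T-D. Cyp2a5, a cytochrome P450 induced by heme and oxidative stress, was at 28754 and 32569 in T-ND replicates 1 and 2 and between 1610.3 and 4014 in the other 6 libraries. Gclc and Txnrd1, which make glutathione and reduce thioredoxin, were also highest in T-ND replicates 1 and 2. The pseudogene Rpl17-ps5 separated the same pair, with 556 and 523 against 3.08 to 10.8 elsewhere. T-ND replicate 3 carried 2980.1 normalized counts of Lcn2, the injury marker lipocalin 2, and 11503 of Fga, the fibrinogen alpha chain, where the other T-ND libraries held at most 613 and 1064. On the first principal component, which held 38.9% of the variance of the 500 most variable genes, T-ND replicate 3 lay at 14.5, within the range of T-D, which ran from 1.36 to 22.3. The other T-ND libraries lay between -37.2 and -4.82. The library names of T-ND replicates 1 and 2 and of T-D replicate 1 end in the letter a, whose meaning the sources used here do not give. Genes of other tissues differed between libraries as well. Over 8 fat markers the summed level was 6298, 8767 and 9518 in T-ND replicates 1 and 4 and T-D replicate 1 and between 921 and 1928 in the others, and over 5 red blood cell genes it was 10533, 12303 and 19063 in T-ND replicate 1, T-D replicate 2 and T-D replicate 4 and between 1212 and 2472 in the others. Summed levels were between 55.4 and 102 for 4 adrenal cortex genes, at most 127 for 5 skeletal muscle genes and between 489 and 1262 for 6 urothelial genes. Of 6 pancreatic genes 4 were not tested for want of reads, Ins2 had at most 18.4 normalized counts, and the sum was almost all Cela1. Their part in the results below was not tested. Neither fat nor red blood cell markers separated T-D from T-ND. Cela1 did, at 2499.5 to 3304 in T-ND and 3438 to 7319 in T-D (log2 fold change 0.73, edgeR, adjusted p = 0.274).

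**Figure D1:**
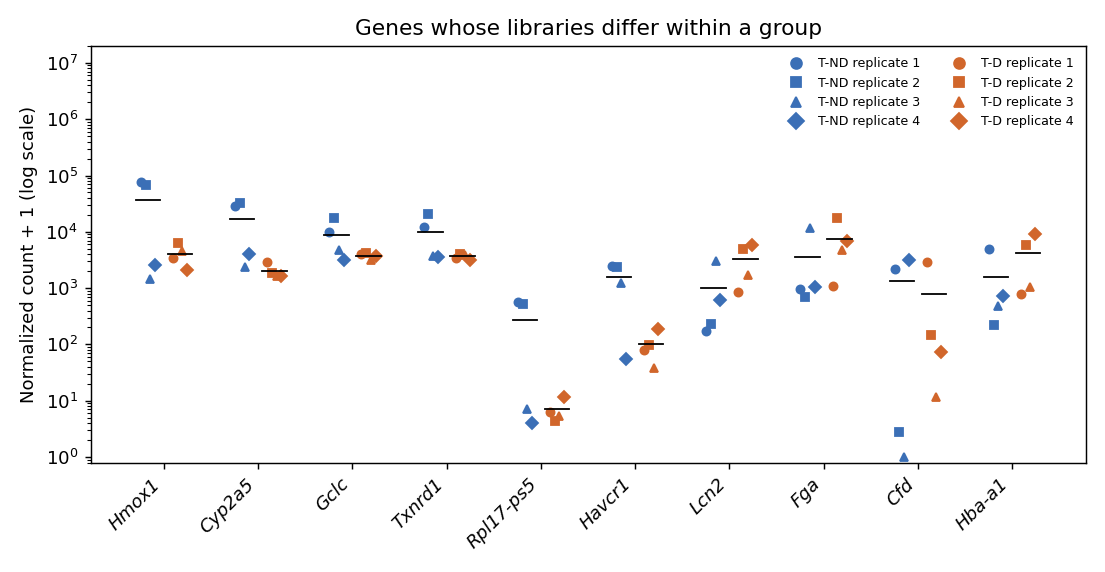
Normalized counts plus 1 on a log scale (vertical axis) of 10 genes whose libraries differed within T-ND (blue) or T-D (orange), with a symbol for each replicate number and a bar at each group's mean. Hmox1, Cyp2a5 and Rpl17-ps5 were high in T-ND replicates 1 and 2, Lcn2 and Fga were highest among T-ND in replicate 3, Cfd of fat was high in T-ND replicates 1 and 4 and T-D replicate 1, and Hba-a1 in T-ND replicate 1 and T-D replicates 2 and 4.

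Few genes passed the test in STZ-treated term kidneys: 12 genes rose and 3 fell in T-D. Of the 12 risen genes 4 were on the list of p53 targets. The risen genes were Ttr, Ccng1, Tiparp, Psrc1, Eda2r, Ephx1, Mgmt, Gadd45b, Ces2e, Depp1, Plcd4 and Birc5, and the fallen genes were 4931408D14Rik, Rdh19 and Osr2. A gene was called when edgeR's quasi-likelihood test gave a Benjamini-Hochberg adjusted p under 0.05 and the log2 fold change was above 1 or below -1. The called genes were 0.0539% of those tested in the higher and 0.0135% in the lower direction. In all 15 genes the T-D and T-ND libraries did not overlap. Over all genes tested, every T-D library lay above every T-ND library in 613 genes (2.75%) and below in 897 (4.03%). An unadjusted p under 0.05 was reached by 1241 higher genes (5.57%) and 1380 lower ones (6.2%), and the median log2 fold change was -0.02.

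**Figure D2:**
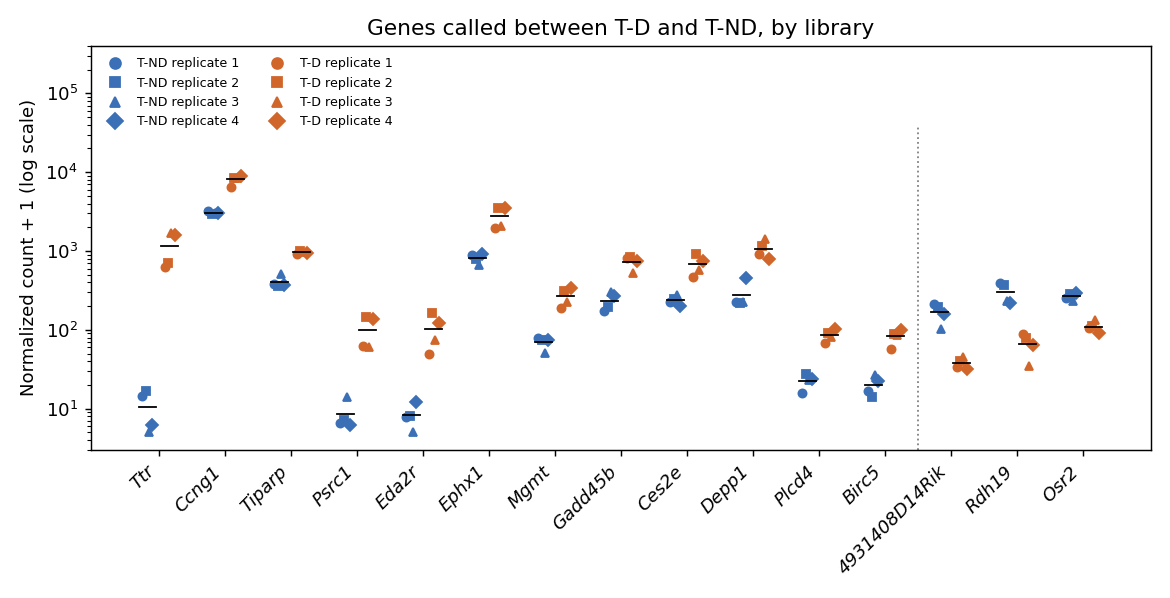
Normalized counts plus 1 on a log scale (vertical axis) of the 15 called genes in each T-ND (blue) and T-D (orange) library, with a symbol for each replicate number and a bar at each group's mean; the 12 higher genes stand left of the dotted line and the 3 lower genes right of it. In each gene the 4 orange points lie wholly above or wholly below the 4 blue points, by the widest margin in Ttr, at 618 to 1671 against 4.02 to 15.7.

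The number of calls depended on single libraries. Without T-ND replicate 3, 223 genes were called higher (1%) and 67 lower (0.301%), of 22254 tested. Without T-ND replicate 1, T-ND replicate 2 or T-D replicate 2, 2 genes were called, Ttr and Ccng1. Without T-D replicate 1 the calls were 19 higher and 9 lower, and without T-D replicate 4 they were 14 higher and 1 lower. DESeq2, the tool of the study, called 185 genes higher (0.831%) and 108 lower (0.485%) in the 8 libraries, all 15 genes among them. Ttr and Ccng1 were called whichever library was left out, and the other 13 genes kept their direction but were called in at most 5 of the 8 such fits. In the 5 libraries whose names do not end in a, Ttr alone was called. Exons of 8 of the 15 genes (Ttr, Ccng1, Tiparp, Psrc1, Ephx1, Mgmt, 4931408D14Rik and Plcd4) overlap exons of another annotated gene, and in unstranded libraries reads from such a stretch cannot be assigned to 1 strand.

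Ttr showed the strongest response. It encodes transthyretin, the carrier of thyroxine and retinol-binding protein in blood, and is best known from liver, choroid plexus and pancreatic islets. In the order of replicates 1 to 4, T-ND libraries held 13.6, 15.7, 4.02 and 5.13 normalized counts and T-D libraries 618, 706, 1671 and 1585. All T-D libraries stood far above all T-ND libraries. Means were 9.63 ± 5.91 in T-ND and 1145 ± 560.0 in T-D (SD, n = 4 each), a log2 fold change of 6.86 ± 0.49 (SE) or 117-fold (edgeR, adjusted p = 0.000178). With any 1 library left out the log2 fold change ran from 6.62 to 7.26. Ttr lies at chr18:20797253-20807467 on the plus strand of GRCm39.

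Targets of p53 held 4 of the 15 genes called by edgeR, all higher in T-D. Of 30 list members tested, 26 lay above 0, 24 of them with an unadjusted p under 0.05, and 1 member below 0 had such a p; DESeq2 called 13 higher and 0 lower. The median log2 fold change of the list was 1.05, against -0.02 over all genes. In 19 members every T-D library exceeded every T-ND library, and in 1, Xpc, every T-D library lay below. Over all genes these shares were 2.75% and 4.03%, and DESeq2 called 0.831% higher and 0.485% lower. Ccng1 encodes cyclin G1, a p53 target that recruits the phosphatase acting on Mdm2. Its normalized counts were 3236, 2949.7, 2997 and 3029.5 in T-ND and 6530.4, 8459, 8515 and 8996 in T-D. The T-ND libraries lay close together and the lowest T-D library was well above them. Ccng1 rose by a log2 fold change of 1.41 ± 0.15 (SE; edgeR, adjusted p = 0.00596).

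Eda2r, Psrc1 and Ephx1 were the other called p53 targets. Eda2r, a receptor for ectodysplasin A2, had 6.81, 6.99, 4.02 and 11.3 normalized counts in T-ND and 47.8, 162, 72.5 and 122 in T-D. Psrc1, a spindle protein, had 5.68, 6.12, 13.1 and 5.13 in T-ND and 61.9, 143, 59.4 and 135 in T-D. In both genes the T-D libraries differed among themselves by more than the whole of the T-ND level, and did not reach down to it. Eda2r rose by 3.77 ± 0.47 and Psrc1 by 3.71 ± 0.45 on the log2 scale (SE; edgeR, adjusted p = 0.0132 for each). Ephx1 encodes microsomal epoxide hydrolase, which detoxifies reactive epoxides. It was at 889, 803, 662 and 909 in T-ND and at 1979, 3529, 2063 and 3524 in T-D, a rise of 1.77 ± 0.22 (SE; edgeR, adjusted p = 0.0132). In all 3 genes T-D replicates 2 and 4 stood above T-D replicates 1 and 3.

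Other p53 targets were chosen for mention after their values were seen, apart from Cdkn1a, Dcxr and Perp. Phlda3, an inhibitor of AKT, was at 67.4 to 109 in T-ND and 193 to 647 in T-D, a log2 fold change of 2.09 ± 0.34 (SE; edgeR, adjusted p = 0.0523; DESeq2, adjusted p = 3.46e-06). Plk2, a stress-induced polo-like kinase, was at 129 to 299 and 385 to 586, with a log2 fold change of 1.35 (edgeR, adjusted p = 0.0821). Cdkn1a encodes the cyclin-dependent kinase inhibitor p21 and stands for p53-driven arrest. It was at 908, 544, 2805 and 1192 in T-ND and at 3128, 5745, 4099 and 4442 in T-D, so that T-ND replicate 3 came close to the lowest T-D library. Its log2 fold change was 1.68 ± 0.41 (SE; edgeR, adjusted p = 0.171), and without T-ND replicate 3 it was called (edgeR, adjusted p = 0.0038). Smaller differences without overlap were measured for Zmat3 (log2 fold change 0.68), Mdm2, the ubiquitin ligase of p53 (0.50), Bax, the pore-forming effector of apoptosis (0.55), and Dcxr (0.45). Perp, Sesn2 and Gdf15, also targets of p53, had log2 fold changes of -0.01, -0.33 and 0.74 with overlapping groups. The DNA-damage recognition gene Xpc had a log2 fold change of -0.41, at 728 to 756 in T-ND and 483 to 631 in T-D.

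Promoters of 4 genes are printed for the motifs that name these 2 groups of targets. They run from 250 bases before to 50 after the transcription start as given by RefSeq for GRCm38.p6, an earlier build than the one the reads were aligned to, and are written 5′ to 3′ on the strand of the gene. Capitals mark matches to the p53 half-site in Ccng1 and Cdkn1a and to the kB site in Nfkbia and Cxcl1, searched on both strands, and in Cxcl1 a pair of overlapping matches forms 1 stretch. Ccng1 is at chr11:40755237-40755536 on the minus strand, Cdkn1a at chr17:29090729-29091028 on the plus strand, Nfkbia at chr12:55492598-55492897 on the minus strand and Cxcl1 at chr5:90890995-90891294 on the plus strand.
Ccng1: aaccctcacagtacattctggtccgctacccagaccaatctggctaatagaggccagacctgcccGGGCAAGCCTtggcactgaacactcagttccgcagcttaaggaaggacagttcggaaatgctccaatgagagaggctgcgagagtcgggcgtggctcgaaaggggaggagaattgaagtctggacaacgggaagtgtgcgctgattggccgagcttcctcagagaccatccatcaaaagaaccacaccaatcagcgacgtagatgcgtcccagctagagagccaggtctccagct
Cdkn1a: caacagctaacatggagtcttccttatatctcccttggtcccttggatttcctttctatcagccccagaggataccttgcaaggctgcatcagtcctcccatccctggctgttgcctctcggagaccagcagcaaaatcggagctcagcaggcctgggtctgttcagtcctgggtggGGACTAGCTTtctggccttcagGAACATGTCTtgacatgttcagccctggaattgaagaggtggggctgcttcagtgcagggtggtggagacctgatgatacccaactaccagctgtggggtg
Nfkbia: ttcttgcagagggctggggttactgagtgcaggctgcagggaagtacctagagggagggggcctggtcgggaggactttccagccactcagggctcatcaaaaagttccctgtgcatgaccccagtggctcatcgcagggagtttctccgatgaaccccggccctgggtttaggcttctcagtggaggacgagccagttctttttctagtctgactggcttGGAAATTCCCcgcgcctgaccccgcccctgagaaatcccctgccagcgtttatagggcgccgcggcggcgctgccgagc
Cxcl1: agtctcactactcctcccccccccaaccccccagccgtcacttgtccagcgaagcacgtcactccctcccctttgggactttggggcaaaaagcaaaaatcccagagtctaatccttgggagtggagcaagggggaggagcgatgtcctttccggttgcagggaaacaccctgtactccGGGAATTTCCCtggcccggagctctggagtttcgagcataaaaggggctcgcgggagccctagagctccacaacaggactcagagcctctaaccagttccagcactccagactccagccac
The matches began at -185 in Ccng1, at -73 and -51 in Cdkn1a, at -29 in Nfkbia and at -71 and -70 in Cxcl1. Of 32851 promoters of this length, 8.36% held the p53 half-site and 4.51% the kB site. Of the p53 list 22 promoters were found, of which 31.8% held the p53 half-site, and of the NF-kB list 23 were found, of which 60.9% held the kB site. Of the 15 called genes 12 promoters were found, 2 with the p53 half-site and 1 with the kB site. These lists were made from known targets, so the shares describe the lists and not the response to STZ.

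Mgmt and Gadd45b, which rose in T-D, were members of none of the gene lists. Mgmt encodes the methyltransferase that takes methyl groups off guanine in DNA, the lesion that STZ makes. It was at 77.2, 72.5, 50.3 and 73.9 normalized counts in T-ND and at 188, 307, 226 and 337 in T-D, with a wide gap between the groups. Mgmt rose by 1.95 ± 0.25 on the log2 scale (SE; edgeR, adjusted p = 0.0132). Gadd45b, a stress sensor induced by NF-kB and by genotoxic stress, was at 170.3, 191, 306 and 268 in T-ND and at 811, 829, 533 and 756 in T-D. It rose by 1.65 ± 0.22 (SE; edgeR, adjusted p = 0.0163), with T-D replicate 3 nearest to T-ND.

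Cell cycle genes were higher in T-D, from a low level. Of 28 members tested 26 lay above 0, 18 of them with an unadjusted p under 0.05 and none below 0 with one; 1 was called by edgeR and 14 by DESeq2. The list median was a log2 fold change of 1.33, and 15 members had all T-D libraries above all T-ND libraries. Over all genes 2.75% had this, and DESeq2 called 0.831% higher. The called gene was Birc5, which encodes survivin of the chromosomal passenger complex. It was at 15.9, 13.1, 26.1 and 21.6 normalized counts in T-ND and in T-D at 56.5, 88.0 and 86.2 in replicates 1 to 3 and higher still in replicate 4, with means of 19.2 ± 5.82 and 82.7 ± 18.5 (SD, n = 4 each). Birc5 rose by 2.10 ± 0.33 (SE; edgeR, adjusted p = 0.0486), the highest adjusted p among the calls, and lost its call under both stricter count filters tried.

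Ccnb1, the cyclin of mitotic entry, was at 10.2, 8.74, 30.2 and 10.3 in T-ND and 78.2, 59.4, 63.0 and 95.1 in T-D. Cdc20, the activator of the anaphase-promoting complex, was at 34.1, 29.7, 42.2 and 23.6 against 109, 64.0, 125 and 107. Neither passed the test (log2 fold changes 2.31 and 1.64; edgeR, adjusted p = 0.0821 for each). Cdk1, Top2a, Mki67 and Cenpf, of mitotic entry, chromosome untangling, proliferating chromatin and the kinetochore, had log2 fold changes of 1.89, 1.69, 1.66 and 2.23. In Ccnb1, Top2a, Mki67 and Cdk1 T-ND replicate 3 held the highest T-ND count, and without it the median of the list was 1.89. Of the genes of DNA replication, the ribonucleotide reductase subunit Rrm2 was at 109 to 181 in T-ND and 165 to 242 in T-D (0.73), the sliding clamp Pcna at 295 to 336 and 338 to 430.0 (0.22), and thymidylate synthase Tyms at 192 to 355 and 305 to 462 (0.42). The helicase subunit Mcm2 and the cyclin of S-phase entry Ccne1 had log2 fold changes of -0.01 and -0.04. Rrm2, Pcna and Tyms were picked by the naming rule, and the other 8 genes of this paragraph after their values were seen.

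NF-kB targets and cytokine genes were higher in T-D almost without exception. Of 30 members 29 lay above 0, all 29 with an unadjusted p under 0.05; Il1b, at -0.60, was the exception. No member was called by edgeR, 22 were called by DESeq2, and without T-ND replicate 3 edgeR called 24. The list median was a log2 fold change of 1.37, or 1.74 without T-ND replicate 3, and 17 members had no overlap between the groups. Over all genes 2.75% were higher without overlap. DESeq2 called 0.831% of all genes higher, and edgeR without T-ND replicate 3 called 1%. The median level of the list, relative to its mean over the 8 libraries on the log2 scale, was -1.17, -1.07, 0.12 and -0.77 in T-ND and 0.66, 1.21, 0.37 and 0.69 in T-D. T-ND replicate 3 stood nearest to T-D.

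Within the list, inhibitors of the pathway and chemokines were both represented. Nfkbia, the inhibitor that holds NF-kB in the cytoplasm, was at 1219, 1354, 2452 and 1339 normalized counts in T-ND and at 4165, 3741, 3576 and 3594 in T-D (log2 fold change 1.24 ± 0.21, SE; edgeR, adjusted p = 0.0692). Tnfaip3, a deubiquitinating brake on the same pathway, was at 293, 259, 707 and 359 against 1569.9, 1446, 1072 and 767. Cxcl1, a neutrophil chemokine, was at 227, 181, 1188 and 322 in T-ND and at 3055, 3862, 1659 and 1768 in T-D (2.43 ± 0.54; edgeR, adjusted p = 0.139). In these genes the lowest T-D library stood above the highest T-ND library, which was replicate 3 each time. Cxcl10, a chemokine of the interferon response, was at 1640.2 to 10326 in T-ND and 12578 to 22052 in T-D (1.83), and the adhesion molecule Icam1 at 1248 to 3626 and 3245 to 7394 (1.20), with overlap. The monocyte chemokine Ccl2 differed less, at 656 to 838 and 891 to 2054 (1.02). Among transcription factors, Irf1 was at 647 to 1131 and 1615 to 2811, with a log2 fold change of 1.37 ± 0.22 (SE; edgeR, adjusted p = 0.0523), Cebpb at 402 to 2008 and 2753 to 4066 (1.96) and Cebpd at 479 to 1339 and 1744 to 2969 (1.47). Socs3, the feedback inhibitor of cytokine receptors, was at 103 to 269 and 403 to 1037 (1.87), and the cytokine Il6 was scarce, at 4.54 to 17.1 against 17.4 to 118 (2.66). Of the genes in this paragraph only Nfkbia, Cxcl10 and Icam1 were picked by the naming rule.

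Markers of leukocytes were centred near 0. Of 26 members 14 lay above 0 and the median log2 fold change was 0.03. None was called by edgeR, where 2 higher and 2 lower had an unadjusted p under 0.05, and DESeq2 called 1 lower. The macrophage receptor Csf1r was at 1155 to 1612 in T-ND and 513 to 1145 in T-D (-0.64), C1qa of tissue macrophages at 280.3 to 466 and 446 to 1089 (0.68) and Lyz2 at 438 to 1412 and 451 to 1568 (-0.04). The highest C1qa and Lyz2 counts among T-D were in replicate 4. Summed levels of the leukocyte list overlapped, at 3231 to 4684 in T-ND and 2983 to 6746 in T-D. Acute phase and complement genes had a median log2 fold change of 0.28, and of 1.02 without T-ND replicate 3, with 2 of 21 members at an unadjusted p under 0.05 above 0 and 1 below, and none called by edgeR or DESeq2. Fga ran from 701 to 11503 in T-ND and from 1091 to 17289 in T-D.

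**Figure D3:**
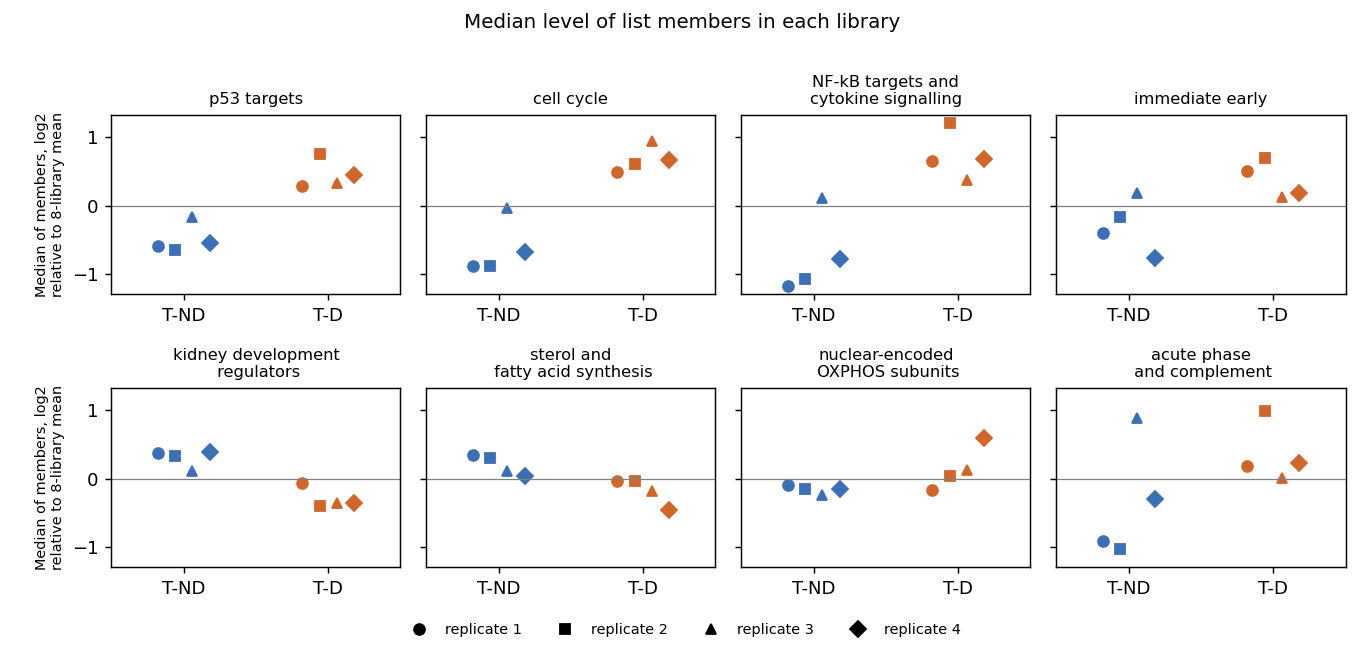
Median over the members of 8 gene lists in each library (vertical axis: log2 of the normalized count relative to the mean of the 8 libraries; blue T-ND, orange T-D; a symbol for each replicate number). For NF-kB targets T-ND replicates 1, 2 and 4 lay between -1.17 and -0.77 and T-ND replicate 3 at 0.12, below the T-D libraries at 0.37 to 1.21; OXPHOS subunits were highest in T-D replicate 4 at 0.59.

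Of 26 immediate early genes 22 lay above 0, 11 with an unadjusted p under 0.05 and none below 0 with one, and the median log2 fold change was 0.55; edgeR called none and DESeq2 called 6, all higher. Fos was at 132 to 452 in T-ND and 201 to 500.5 in T-D (-0.04) and Egr1 was at 371 to 1127 and 371 to 1176 (-0.23). Klf6, a zinc finger factor of tubular stress, was at 672, 709.7, 1406 and 768 against 1914, 4030.4, 2399 and 2291 (1.58 ± 0.28, SE; edgeR, adjusted p = 0.0746). Maff, a small partner of NRF2, had means of 264 ± 95.7 and 825 ± 262 (SD, n = 4 each; log2 fold change 1.64; edgeR, adjusted p = 0.0592), and Atf3, a stress-induced repressor, at 96.5 to 393 and 406 to 952 (1.84). Dusp1 and Zfp36, which dampen MAP kinases and destabilise cytokine mRNAs, had log2 fold changes of 0.65 and 0.55 with overlap. Without T-ND replicate 3 these were 1.43 and 0.86, and Dusp1 was called higher (edgeR, adjusted p = 0.0109) but Zfp36 was not. Fos, Egr1, Maff and Atf3 were named after their values were seen. Sgk1, an aldosterone- and osmolality-responsive kinase listed with osmotic stress, was at 4536, 4492, 21621 and 8245 in T-ND and 19071, 18227, 18773 and 17726 in T-D. T-ND replicate 3 had the highest count of all 8, and without it Sgk1 was called higher (edgeR, adjusted p = 0.00587).

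The remaining 4 genes that rose lay outside the lists. Tiparp, a mono-ADP-ribosyltransferase induced by the aryl hydrocarbon receptor, was at 376, 361, 509 and 375 normalized counts in T-ND and at 924, 997, 983 and 947 in T-D. The T-D libraries lay close together, well above the highest T-ND library. Tiparp rose by 1.25 ± 0.15 on the log2 scale (SE; edgeR, adjusted p = 0.0132). Depp1, induced by FOXO factors when insulin signalling is low, was at 224, 218, 224 and 454 against 911, 1168, 1403 and 782, a rise of 1.93 ± 0.27 (SE; edgeR, adjusted p = 0.0234). T-ND replicate 4 stood above the other T-ND libraries. Ces2e, a carboxylesterase of the Ces2 cluster, whose members are alike in sequence, was at 226, 244, 278 and 202 against 471, 919, 579 and 754, a rise of 1.52 ± 0.21 (SE; edgeR, adjusted p = 0.0234). Plcd4, a phospholipase C, was at 14.8, 26.2, 22.1 and 22.6 against 66.2, 90.3, 81.2 and 102, a rise of 1.98 ± 0.30 (SE; edgeR, adjusted p = 0.0357).

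The genes that fell were a lncRNA, a dehydrogenase and a transcription factor. The lncRNA 4931408D14Rik (chr19:37232068-37241537, minus strand, GRCm39) was at 211, 194, 103 and 157 normalized counts in T-ND and at 32.6, 38.9, 44.9 and 31.3 in T-D. It fell by 2.16 ± 0.28 on the log2 scale (SE; edgeR, adjusted p = 0.015). Rdh19, of a cluster of similar retinol dehydrogenases, was at 390.5, 374, 230.2 and 221 against 87.9, 77.7, 34.1 and 63.8, and fell by 2.21 ± 0.31 (SE; edgeR, adjusted p = 0.0242). Osr2, an odd-skipped transcription factor, was at 254, 281, 233 and 295 against 103, 109.7, 133 and 90.3, and fell by 1.28 ± 0.19 (SE; edgeR, adjusted p = 0.0357). In each gene the lowest T-ND library stood well above the highest T-D library.

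Regulators of kidney development were mostly lower in T-D. Of 29 members tested 6 lay above 0 and 23 below; 13 of those below and 2 of those above had an unadjusted p under 0.05, and 8 below and 2 above had no overlap. Over all genes 4.03% lay below and 2.75% above without overlap. The list median was -0.57. No member was called by edgeR and 4 were called lower by DESeq2, without a higher one. Of all genes DESeq2 called 0.485% lower and 0.831% higher. Sox17, an endothelial and endodermal factor, was at 163, 180.0, 106 and 157 in T-ND and 66.2, 35.4, 56.5 and 49.4 in T-D (-1.54 ± 0.27, SE; edgeR, adjusted p = 0.0692). Ihh, the Indian hedgehog ligand of the proximal tubule, was at 549, 801, 467 and 483 against 238, 247, 216 and 324 (-1.17 ± 0.21, SE; edgeR, adjusted p = 0.0724). Prox1, a homeobox factor, was at 69.4 to 236 and 35.5 to 54.3 (-1.63). These 3 and Pax8 were named after their values were seen. Id2, an inhibitor of helix-loop-helix factors, was at 4949.8 to 7742 and 2794 to 4986 (-0.87), Fgf1 at 2442 to 4409 and 1568 to 2663 (-0.70) and the proximal tubule factor Hnf4a at 12644 to 14670.0 and 8046 to 13345 (-0.33). Pax8, of the developing and adult tubule, had a log2 fold change above 0, at 1118 to 1515 against 1960.2 to 2135 (0.66).

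Sterol and fatty acid synthesis genes were also lower. Of 19 members 3 lay above 0, 9 had an unadjusted p under 0.05 below 0 and none above, and the median log2 fold change was -0.41, with no call by edgeR and 1 by DESeq2. Scd2, a stearoyl-CoA desaturase, was at 1726, 1510.3, 1333 and 1436 in T-ND and 1035, 796, 654 and 547 in T-D (-0.99 ± 0.19, SE; edgeR, adjusted p = 0.0991). Scd1, its paralog, was at 12541 to 25745 and 4790.0 to 10479 (-0.94). Among enzymes of cholesterol synthesis Cyp51 was at 3583 to 7698 and 3172 to 5764 (-0.36) and Hmgcs1 at 3914 to 5244 and 3134 to 5587 (0.05). Scd2 was named after its values were seen.

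Of 32 genes of proximal tubule uptake and transport 21 lay above 0, the median log2 fold change was 0.12, edgeR called none and DESeq2 called 2 lower, with 2 higher and 4 lower at an unadjusted p under 0.05. The sodium-phosphate cotransporter Slc34a1 was at 52419 to 87992 in T-ND and at 87748, 91722, 89772 and 41852 in T-D (0.13), with T-D replicate 4 apart, and Lrp2 was at 31775 to 35640.0 and 22231 to 30957 (-0.39) without overlap. Slc7a13, an apical amino acid transporter named after its values were seen, was at 127, 167, 38.2 and 50.3 against 23.9, 10.3, 15.9 and 18.1 (-2.48; edgeR, adjusted p = 0.0991). Of 20 genes of the loop of Henle and distal tubule 8 lay above 0, with a median of -0.08, 1 higher and 6 lower at an unadjusted p under 0.05, and none called by edgeR or DESeq2. Umod was at 34580.0 to 50050.0 in T-ND and 16339 to 32520.0 in T-D (-0.90), Egf, also made by the distal nephron, at 13874 to 21007 and 9349 to 15359 (-0.72), and Slc12a1 at 11134 to 19095 and 5821 to 12982 (-0.69). Collecting duct genes had 3 of 20 members above 0 and a median of -0.39, with 6 at an unadjusted p under 0.05, all lower, and none called by edgeR or DESeq2. Aqp2, the vasopressin-regulated water channel, was at 7215 to 14017 and 6307 to 8709 (-0.40), and Hsd11b2, which protects the mineralocorticoid receptor from glucocorticoids, at 2048 to 2711 and 1219 to 1930.3 (-0.58). The 11 genes of the osmotic stress response had a median of -0.50, with Slc6a6, the taurine transporter, at 4685 to 5583 and 1881 to 4194 (-0.75) and aldose reductase Akr1b1 at 3448 to 6947 and 1322 to 5535 (-0.62).

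Injury markers diverged. Of 20 members 16 lay above 0, 8 of them with an unadjusted p under 0.05, and the median log2 fold change was 0.57; edgeR called none and DESeq2 called 2 higher and 1 lower. Havcr1, which encodes KIM-1 on injured proximal tubule cells, was at 2519.9, 2369, 1252 and 54.4 normalized counts in T-ND and at 78.2, 96.0, 37.7 and 189 in T-D. Its 3 high libraries were all non-diabetic. The log2 fold change was -3.97 ± 0.85 (SE; edgeR, adjusted p = 0.122), and DESeq2 called it lower. Clu, a secreted chaperone, was at 4029.6 to 7795 and 7805 to 13075 (0.91), Spp1, which encodes osteopontin, at 26147 to 37141 and 34896 to 59813 (0.65), and Lcn2 at 170.3 to 2980.1 and 853 to 5846 (1.75). Without T-ND replicate 3 Lcn2 was called higher, at a log2 fold change of 3.33 (edgeR, adjusted p = 0.0302), and Clu and Spp1 were not called. Sox4, a factor of tubular repair, was at 363 to 1055 and 947 to 2348 (1.63). Krt7, a keratin, had a log2 fold change of -0.14. Havcr1 and Sox4 were named after their values were seen.

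Glucose and fat metabolism showed a small number of larger differences. Of 19 genes of glucose entry, glycolysis and fructose or sorbitol handling 14 lay above 0, with a median of 0.17; 1 was called by DESeq2, and none by edgeR, where 5 higher and 2 lower had an unadjusted p under 0.05. Txnip, a glucose-responsive inhibitor of thioredoxin, was at 3487, 3683, 3575 and 5066 in T-ND and 7476, 9119, 7434 and 5751 in T-D (0.91 ± 0.18, SE; edgeR, adjusted p = 0.102). Pfkfb3, an activator of glycolysis, was at 455 to 1339 and 817 to 2963 (1.40). The fructose and sorbitol enzymes Khk and Sord, abundant in proximal tubules, had log2 fold changes of 0.21 and 0.15. Of 18 genes of gluconeogenesis and insulin or IGF signalling 8 lay above 0, with Pck1, the rate-limiting enzyme of gluconeogenesis, at 34690.0 to 140107 and 46737 to 121718 (-0.04) and Fbp1 at 22448 to 26241 and 24572 to 32465 (0.20). Of 24 genes of fatty acid oxidation 14 lay above 0 (median 0.08), and DESeq2 called 2 higher. Pdk4, a kinase of pyruvate dehydrogenase, was at 530.1, 612, 2319 and 2015 against 4033, 4411, 4044 and 2707 (1.47; edgeR, adjusted p = 0.235), and Angptl4, an inhibitor of lipoprotein lipase, at 1409, 843, 3517 and 3211 against 5039.7, 5980.4, 6342 and 4957 (1.31; edgeR, adjusted p = 0.218). In both the T-ND libraries split into replicates 1 and 2, low, and 3 and 4, higher. Acadm and Ehhadh of beta-oxidation had log2 fold changes of -0.42 and -0.17. Txnip, Pfkfb3, Pdk4 and Angptl4 were named after their values were seen.

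Subunits of oxidative phosphorylation were slightly higher as a list. Of 34 nuclear-encoded subunits 33 lay above 0, 12 with an unadjusted p under 0.05, the median log2 fold change was 0.34, and neither edgeR nor DESeq2 called any. T-D replicate 4 carried much of it: its list median was 0.59 on the log2 scale against -0.16 to 0.13 in the other T-D libraries, and without it the median log2 fold change was 0.16. Cox6a1 of cytochrome oxidase was at 14172 to 14936 in T-ND and at 15027, 18662, 21305 and 32821 in T-D. Of 13 mitochondrially encoded mRNAs 11 lay above 0 (median 0.32), with mt-Co1 at 719442 to 1096060.0 and 879312 to 1326770.0. T-D replicate 4 was also the T-D library with the lowest median of the podocyte (-0.65), endothelial (-0.80) and matrix (-0.71) lists, and 5.16% of its reads were unmapped against 1.76% to 2.28% in the other 7 libraries. The part of this library in each list was measured by leaving it out and was not otherwise tested.

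Glomerular, vascular and matrix genes mostly overlapped between the groups. Without overlap were 1 higher and 2 lower of 22 endothelial genes, 1 lower of 30 matrix genes and no podocyte gene. Over all genes the shares without overlap were 2.75% higher and 4.03% lower. The podocyte list had a median log2 fold change of 0.09 and no member with an unadjusted p under 0.05, nor any call by edgeR or DESeq2; Nphs1, which encodes nephrin, was at 0.48 and the sialomucin Podxl at 0.01. The endothelial list had a median of -0.15, 2 members at an unadjusted p under 0.05 above 0 and 5 below, none called by edgeR, and 2 higher and 1 lower called by DESeq2. Outside the list, Esm1, a tip-cell proteoglycan, was at 372 to 647 in T-ND and 102 to 268 in T-D (-1.36; edgeR, adjusted p = 0.102), and Edn1, which encodes endothelin 1, at 31.5 to 77.4 and 117 to 191 (1.54; edgeR, adjusted p = 0.102); these were named after their values were seen, as was Clec14a, an endothelial lectin, at 81.4 to 196 and 28.9 to 52.9 (-1.83). In the renin-angiotensin list Ace, which makes angiotensin II, was at 6025, 5743, 4791 and 3619 against 3008, 2111, 1734 and 2709 (-1.08 ± 0.21, SE; edgeR, adjusted p = 0.0991), and Ren1 was at 1384 to 2596 and 1574 to 2853 (0.33). Matrix and fibroblast genes had a median of 0.16, with Col4a1, Col4a2 and Ccn2 at 0.38, 0.47 and -0.03. Of 19 circadian genes 8 lay above 0 and the median was -0.08, with 2 higher and 2 lower at an unadjusted p under 0.05; edgeR called none, and DESeq2 called 1 higher and 1 lower. Bmal1, a transcription factor of the core clock named after its values were seen, was at 117 to 171 and 53.2 to 78.3 (-1.14; edgeR, adjusted p = 0.104), and Ciart, likewise named, was at 142 to 368 and 383 to 774 (1.09; edgeR, adjusted p = 0.205).

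Genes of the NRF2, heme and iron list were highest in T-ND replicates 1 and 2. The median log2 fold change was -0.24 over the 8 libraries and 0.25 over the 5 libraries without the suffix a, which leaves out T-ND replicates 1 and 2. Hmox1 had a log2 fold change of -3.20 (edgeR, adjusted p = 0.274) over the 8 libraries and 1.10 over the 5. Fth1, the ferritin heavy chain, was at 65920.0 to 114703 in T-ND and 60954 to 141414 in T-D (0.15). Genes known to be higher in kidneys of female than of male mice all lay below 0 in T-D, 8 of 8, with a median of -0.87, 5 at an unadjusted p under 0.05 and 2 lower by DESeq2; Cyp2a5, high in T-ND replicates 1 and 2, is one of them, and Cyp2a4 and Cyp2a5 are near-identical copies that share reads. Of the male-biased list 6 of 10 lay above 0, with Kap at 184686 to 392555 and 75955 to 406128. The unfolded protein and amino acid response list was centred at -0.01, with Hspa5 at 6104 to 15118 and 6140.0 to 9289 (-0.25).

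**Figure D4:**
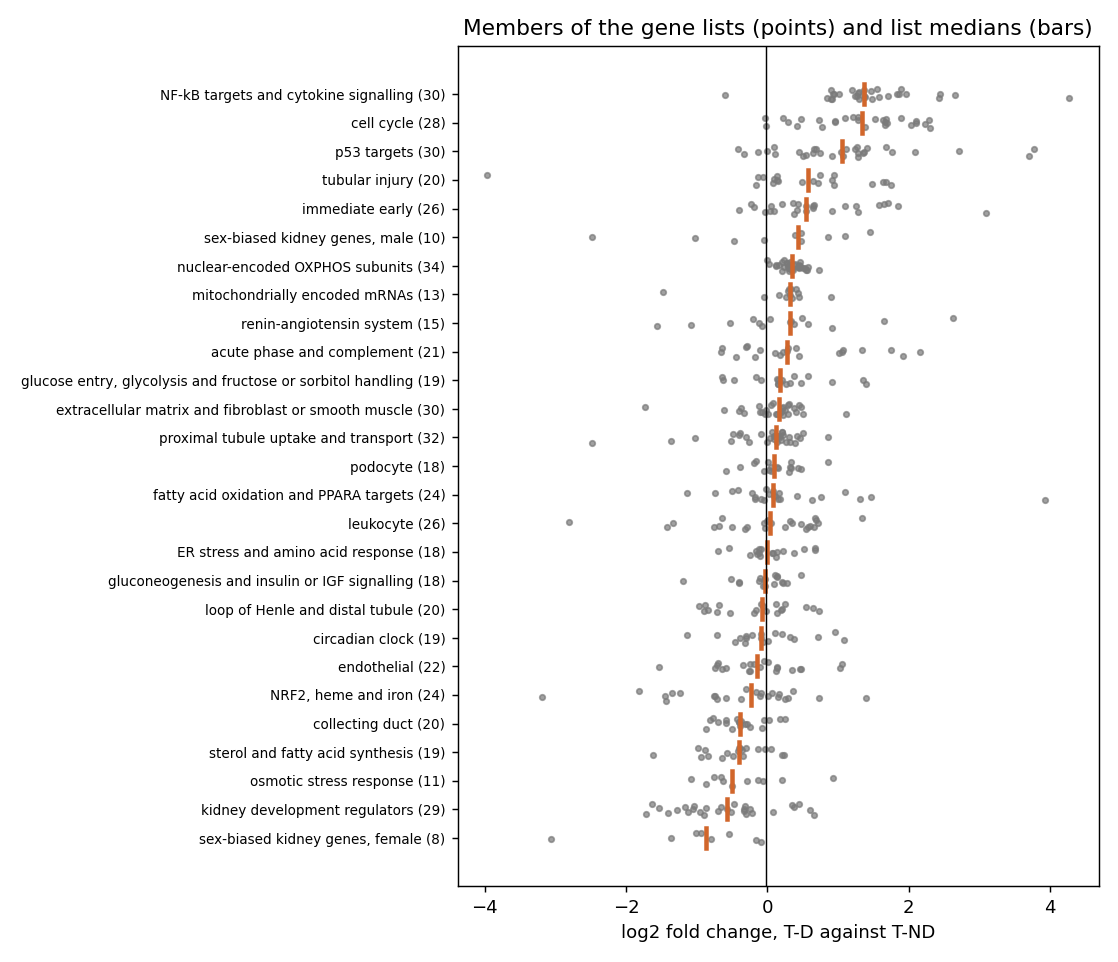
Log2 fold change of T-D against T-ND (horizontal axis) of each tested member (grey points) of the kidney gene lists, ordered by the list median (orange bar), with the number tested in brackets and a black line at the median of all genes (-0.02). NF-kB, cell cycle and p53 lists lay furthest right, at medians of 1.37, 1.33 and 1.05, and the female-biased and kidney development lists furthest left, at -0.87 and -0.57.

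The same treatment in preterm females gave these genes a value in libraries that did not choose them. PT-D against PT-ND shared no library with T-D against T-ND and had 661 higher (2.96%) and 444 lower calls (1.99%) among 22303 genes. Some PT-D females of the study had needed a second round of STZ. Of the 12 genes that rose in T-D, 7 also rose in PT-D: Ttr, Ccng1, Psrc1, Eda2r, Ephx1, Ces2e and Plcd4. Ttr was at 3.33, 15.6 and 11.1 normalized counts in PT-ND and at 71.8, 1180.2 and 111 in PT-D, which differed on the log2 scale by 5.51 ± 1.09 (SE; edgeR, adjusted p = 0.0117). Ccng1 was at 3648, 3156 and 4180.1 against 8054, 10901 and 9749.5 (1.39 ± 0.17; edgeR, adjusted p = 0.00271), close to its 1.41 in term mice. Eda2r was at 6.02 to 7.77 and 125 to 234 (4.77 ± 0.39; edgeR, adjusted p = 0.000382). In the test of the difference between the preterm and the term effect over all 14 libraries, none of these 7 genes was called. Over all genes that test called 443 genes with a higher preterm effect (1.98%) and 550 with a lower one (2.46%) of 22339. That count fell to 76 without PT-D replicate 3 and to 111 without PT-ND replicate 3, and it was between 283 and 1241 without any other library.

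Effects that differed between term and preterm mice included 3 of the 15 genes. Mgmt was at 104, 126 and 153 in PT-ND and 121, 207 and 183 in PT-D, and its preterm effect was lower by 1.55 on the log2 scale than the term effect of 1.95 (difference -1.55; edgeR, adjusted p = 0.0317). Gadd45b was at 1085, 632 and 481 against 695, 291 and 407, with a difference of -2.32 (edgeR, adjusted p = 0.0186). The lncRNA 4931408D14Rik fell in term mice but rose in preterm mice, at 48.8, 69.8 and 56.5 in PT-ND and 121, 176 and 229.8 in PT-D, with a difference of 3.73 (edgeR, adjusted p = 0.000991). The p53 list had a median of 0.89 in preterm mice with 24 of 30 members above 0, beside 1.05 and 26 in term mice, and 1 member was called with a higher and 2 with a lower preterm effect. The NF-kB list had a median of -0.32 in preterm mice with 11 of 30 members above 0, beside 1.37 and 29, and 13 members were called with a lower preterm effect and none with a higher one. Nfkbia was at 3859.6 to 5072 in PT-ND and 2539.8 to 2924 in PT-D (difference -1.94; edgeR, adjusted p = 0.00722). Its PT-ND libraries stood near the level of T-D libraries, though term and preterm counts were scaled apart and compare only roughly. Subunits of oxidative phosphorylation also lay mostly below 0 after STZ in preterm mice, with 1 of 34 above 0, a median of -0.48 and 1 called lower. In the test of the difference 7 of them were called with a lower preterm effect. Acute phase genes had a median of 1.99 in preterm mice, with 11 of 21 called higher, beside 0.28 in term mice, and 1 was called with a higher preterm effect.

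**Figure D5:**
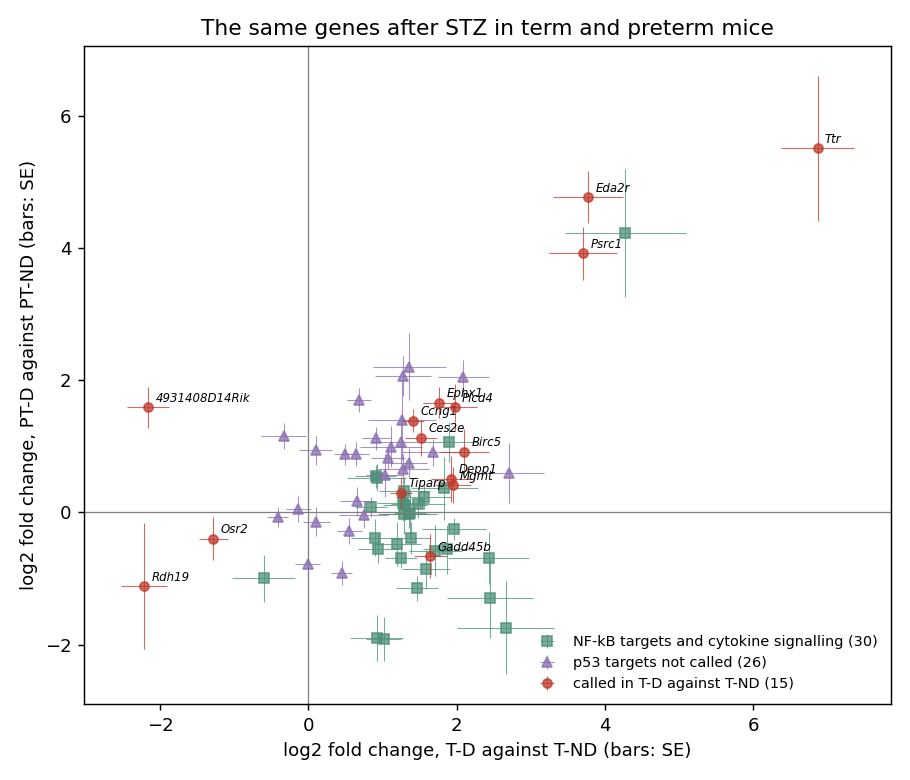
Log2 fold change of T-D against T-ND (horizontal axis) and of PT-D against PT-ND (vertical axis), bars showing SE, for the 15 called genes (red circles, named), p53 targets that were not called (purple triangles) and NF-kB targets and cytokine genes (green squares). Ttr, Eda2r and Psrc1 lie high on both axes, 4931408D14Rik at -2.16 and 1.59, and most NF-kB genes right of the vertical line and at or below the horizontal one.

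By the smallest p of the test of the difference, the genes with a higher preterm effect were Lama3, the laminin alpha 3 chain (difference 3.82; edgeR, adjusted p = 0.0009), 4931408D14Rik and Exoc3l2, named for its likeness to an exocyst subunit (3.43; edgeR, adjusted p = 0.00474). Lama3 was at 282 to 704 in T-ND, 365 to 524 in T-D, 34.4 to 50.0 in PT-ND and 504 to 729 in PT-D, so that PT-ND stood apart from the other 3 groups. Exoc3l2 was at 344 to 531, 56.0 to 214, 155 to 273 and 648 to 874. Those with a lower preterm effect and the smallest p were Ch25h, cholesterol 25-hydroxylase (-3.36; edgeR, adjusted p = 0.0009), Prr7 (-3.21; edgeR, adjusted p = 0.00474) and Jdp2, a repressor of AP-1 (-1.76; edgeR, adjusted p = 0.00541). Ch25h was at 51.3 to 80.4 in T-ND, 106 to 166 in T-D, 229 to 263 in PT-ND and 32.8 to 55.3 in PT-D. Prr7 was at 18.4 to 38.0, 56.5 to 105, 123 to 153 and 35.9 to 54.4.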

How the data were processed

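Total RNA of 1 kidney per mouse was sequenced as unstranded bulk mRNA libraries. The authors removed adapters and low-quality bases, aligned the reads to GRCm39 with STAR, whose version is not given in the sources used here, and deposited whole-number read counts per gene (GENCODE release 36); STAR does not count reads that fall on more than 1 gene. Each of the 14 libraries was mapped to its group by its label. Symbols and positions came from GENCODE release 39. The unstranded counts, without the summary lines, were restricted to genes with a total above 10 over the 14 libraries. T-D was compared with T-ND by edgeR 4.0.16 (TMM scaling, quasi-likelihood test, two-sided, Benjamini-Hochberg adjustment over all genes tested) in R 4.3.3, with calls at an adjusted p under 0.05 and a log2 fold change beyond 1 in either direction. PT-D was compared with PT-ND in the same way, and the difference of both effects was tested as an interaction over 14 libraries. DESeq2 1.42.0 was an alternative. SE values are the log2 fold change divided by the root of the F statistic. Normalized counts are counts divided by the TMM library size and multiplied by its mean over the 8 term libraries. For PT-ND and PT-D they were scaled apart, within the 6 preterm libraries, so levels of term and preterm groups compare only roughly.

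The comparison, the 33 gene lists and the naming rule were chosen with earlier results of these data known, and some list genes were on a table of the study, so lists are described by counts and medians and not tested. Named genes were up to 12 calls per direction, by p, whose groups did not overlap and whose mean normalized count over the 8 libraries was 50 or more, which took in all 15; per list up to 5 members with the lowest p among those with an adjusted p under 0.05 and 3 others with the highest mean; and 3 genes per direction of the interaction. Some genes are not reported here. Any other gene is said to be named after its values were seen. The scripts were tested on simulated counts. Alternatives were other scalings, filters and tools, a joint fit, the name suffix, the replicate number as a block, and leaving out each library. No pair of replicates agreed within sampling noise (mean chi-square per gene 25.3 to 145). The 8 libraries held 16697246 to 28673176 reads on genes.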

Additional observations from a re-analysis of the deposited data

Results flagged for a closer look

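By Dixon's criterion a library is set apart when the gap to its nearest neighbour takes up most of its group's range. This held in 35 of 338 groups of values of the 173 named genes, without those named only as markers. Groups with very low counts were passed over but are counted among the 338. Many of the genes were named after their values were seen and their counts are not independent, so no number expected by chance is given. The values below are normalized counts, and no explanation of them was tested. T-ND replicate 3 stood apart for Tiparp (509), Psrc1 (13.1), Nfkbia (2452), Klf6 (1406), Ccnb1 (30.2), Cebpb (2008), Atf3 (393), Cxcl1 (1188), Top2a (56.3), Lcn2 (2980.1) and Fga (11503). T-D replicate 4 lay apart from the other 3 for C1qa (1089), Pcna (430.0), Krt7 (2865), Eng (1024), Slc34a1 (41852), Hmgcs1 (3134) and Plvap (1036). T-ND replicate 4 was the outlying library of its group for Depp1 (454), Txnip (5066), Ccl2 (838), Zmat3 (299.8), Fbp1 (22448), Star (69.8) and Fos (132). T-D replicate 1 was outlying for Cfd (2868), Fabp4 (4393) and Ucp1 (794). T-D replicate 2 differed from the other 3 for Maff (1216), Mdm2 (1783) and mt-Nd1 (284010.0). T-ND replicate 1 held an outlying count of Hba-a1 (4966) and Hbb-bs (4714). T-ND replicate 2 was apart for Egf (13874) and Cox6a1 (14172).

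For 27 named genes edgeR's interaction test called a difference between the preterm and the term effect over the 14 libraries. The values are the preterm minus the term log2 fold change. The preterm effect was higher for 4931408D14Rik (3.73), Sox17 (2.15), Clec14a (2.96), Exoc3l2 (3.43), Havcr1 (7.18), Zmat3 (1.00), Hspa5 (1.34) and Lama3 (3.82). It was lower for Mgmt (-1.55), Gadd45b (-2.32), Maff (-1.96), Socs3 (-2.44), Nfkbia (-1.94), Cebpd (-2.63), Prr7 (-3.21), Tnfaip3 (-2.46), Cebpb (-2.23), Cxcl1 (-3.14), Ccl2 (-2.95), Il6 (-4.42), Ch25h (-3.36), Cela1 (-1.46), Dcxr (-1.38), Cox6a1 (-1.32), Tnf (-2.84), Jdp2 (-1.76) and Khk (-1.05). Among these genes, Havcr1, named after its values were seen, had the widest difference, with high counts in 3 T-ND libraries and in 2 PT-D libraries.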

How the results depend on the processing

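The 12 higher and 3 lower calls became 185 and 108 with DESeq2, 74 and 35 with no filter on low counts, 41 and 17 in a joint fit of the 14 libraries and 1 and 0 in the 5 libraries without the suffix a (edgeR, except where DESeq2 is named). Leaving out 1 library gave 2 to 223 higher and 0 to 67 lower calls, the extremes without T-ND replicate 1, T-ND replicate 2 or T-D replicate 2 and without T-ND replicate 3. Chosen after seeing the data, leaving out T-ND replicates 1 and 2 together gave 1 and 0, and DESeq2 without T-ND replicate 3 gave 450 and 196. The cause of these differences was not tested, beyond the smaller number of libraries. Other scalings, stricter filters, the suffix as a covariate, mitochondrial genes left out and no limit on the fold change stayed close to both counts. All 15 genes kept their direction in every setting run; Birc5 lost its call with either stricter filter, Rdh19 in the joint fit, and Osr2 and Plcd4 with the suffix as a covariate. The replicate numbers do not pair the samples: deviations of T-ND and T-D libraries with the same number correlated at 0.292, -0.29, 0.0757 and -0.233 over 12002 genes, and only number 1 correlated best with itself. With the replicate block the calls were 15 and 4, and 12 of the 15 genes were among them, without Osr2, Plcd4 and Birc5. The 1105 calls of PT-D against PT-ND ran from 594 to 1419 with 1 library left out. The 993 calls of the interaction were 1645 with DESeq2 and ran from 76 to 1241 with 1 library left out. Ttr held at most 15.7 normalized counts in any T-ND library, so its fold change has a wide counting error.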
